A study of Mus musculus with 4 samples.

Results

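The 80 nuclear genes named for the respiratory chain and ATP synthase (*Nduf*, *Uqcr*, *Cox4* to *Cox8* and *Atp5* genes) were followed through T-cell activation. They were chosen by a rule on names alone from the 23719 gene names of the deposited tables, at a time when earlier results of these data were known. The names place 37 of them in complex I, 8 in complex III, 18 in complex IV and 17 in complex V. The study sequenced RNA of splenic CD4+ T cells from C57BL/6J mice aged 10 to 12 weeks per the labels. There was 1 library for each of 4 conditions. WT cells came from Cic f/f mice, and cKO cells from Cic f/f; Cd4-Cre mice, whose Cre is driven by the promoter of *Cd4*, so that *Cic*, which encodes the transcriptional repressor Capicua, is removed in cells that have passed through expression of that gene in the thymus. Both genotypes carry the floxed alleles. On day 0 the cells were naïve and unstimulated, and on day 3 they had been kept on antibodies to CD3 and CD28, each coated at 2 μg per ml. The labels describe the sort as CD44hi CD62Llo and the methods of the study as CD44lo CD62Lhi, and neither says whether cells of several mice were pooled. Without replicates, no difference was tested.

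The respiratory chain passes electrons from NADH (complex I) and succinate (complex II) through ubiquinone, complex III and cytochrome c to oxygen at complex IV, and ATP synthase (complex V) uses the proton gradient that results. Complexes I, III, IV and V combine subunits encoded in the mitochondrial genome with many more encoded in the nucleus, so that both genomes must supply each of them. Resting T cells depend on oxidative phosphorylation, and on stimulation they grow, divide and enlarge their mitochondria while also taking up glycolysis.

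The start regions of these genes are shown first, because 66 of the 80 had an entry among the RefSeq promoters (GRCm38.p6), each of 250 bases before and 50 from the start base onward. Letters known for factors of respiratory genes were sought on both strands, and a gene with several listed starts counted once if any of its windows held them. GCGCATGCG, a core of NRF1 sites, stood in promoters of 8 of the 66 genes (12.1%), against 4.45% of 8838 genes measured here with an entry and 1.95% of 27025 genes in the whole table. AAGATGGCG, a core of YY1 sites, also stood in 8 (12.1%), against 3.96% and 1.64%. CCGGAAGT, bound by ETS factors such as GABP, stood in 5 (7.58%), against 10.1% and 4.31%. TCAAGGTCA, known for ERR alpha, stood in 1 (1.52%), against 0.328% and 0.466%, and the CIC letters TGAATGAA or TGAATGGA in 2 (3.03%), *Cox8a* and *Ndufc1*, against 1.72% and 2.85%. In all, 21 genes held at least 1 of these and 45 held none. The share of all genes with at least 1 of them was not computed, so the 21 have no background. No search word is contained in another, and 3 genes held letters of a pair of factors, those of *Uqcr11* (NRF1 and ETS), *Cox8a* (ETS and CIC) and *Ndufc1* (YY1 and CIC). The windows show NRF1 letters in 1 or more genes of each complex and then YY1 letters, with the matched letters in capitals, since these are the words found in the most members.
Ndufa8: tcgctggagaCGCATGCGCagatggtacc
Uqcr11: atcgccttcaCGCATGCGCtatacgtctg
Cox6a1: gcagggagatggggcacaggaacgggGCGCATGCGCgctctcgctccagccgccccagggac
Atp5k: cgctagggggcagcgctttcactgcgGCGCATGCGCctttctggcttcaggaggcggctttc
Atp5g2: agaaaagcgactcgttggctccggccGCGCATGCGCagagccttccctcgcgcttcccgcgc
Ndufc1: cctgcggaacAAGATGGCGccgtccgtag
Ndufs6: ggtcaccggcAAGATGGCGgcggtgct
Ndufa9: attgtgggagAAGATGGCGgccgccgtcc
Atp5j: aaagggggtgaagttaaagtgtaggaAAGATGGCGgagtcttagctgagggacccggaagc

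All 9 windows read 5′ to 3′ on the strand of the gene, which is the minus strand throughout. Those with NRF1 letters lie at chr2:36049329-36049357 for *Ndufa8*, chr10:80406808-80406836 for *Uqcr11*, chr5:115349085-115349146 for *Cox6a1*, chr5:108434414-108434475 for *Atp5k* and chr15:102671054-102671115 for *Atp5g2*. Those with YY1 letters lie at chr3:51408915-51408943 for *Ndufc1*, chr13:73328433-73328459 for *Ndufs6*, chr6:126849097-126849125 for *Ndufa9* and chr16:84835030-84835090 for *Atp5j*. The NRF1 word is nearly its own reverse complement, and in 5 of its 8 genes it was read on both strands. The YY1 word began 22 to 35 bases after the start base in 7 of its 8 genes (in *Atp5sl* from a single one of its listed starts), and in *Atp5j* 88 bases before it. A match of letters is a description of the sequence and was not tested for binding. On activation the 8 genes with NRF1 letters had median log2 ratios (day 3 over day 0) of 1.40 in WT and 1.24 in cKO, and the 54 measured genes with a promoter entry and no NRF1 letters had 1.53 and 1.43. For the YY1 word the medians were 1.54 and 1.27 in 8 genes with it and 1.48 and 1.42 in 54 without it. All of these medians for NRF1 and YY1 lay between 1.24 and 1.54. For the ETS word they were 1.16 and 1.04 in 5 genes with it and 1.52 and 1.42 in 57 without it. For the CIC letters the 2 genes had 2.05 and 1.78, and 60 without them 1.48 and 1.41. *Atp5g3*, the only gene with the ERR alpha word, had 2.07 and 1.81, and 61 without it 1.49 and 1.41. None of these differences was tested.

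Levels are given as FPKM, fragments counted relative to transcript length and to all mapped fragments, which are comparable between genes of different length. A gene counted as measured when its mean FPKM over the libraries was at least 1, as 11165 named genes and 73 members did. Of the 7 members below this, *Cox4i2*, *Cox7b2*, *Cox8b* and *Cox8c* are listed at 0 in every library, and *Ndufa4l2*, *Cox6a2* and *Cox6b2* are given with their relatives further on. Among the measured members only *Cox7a1*, the muscle form of subunit 7A, has a library listed at 0, so it enters the counts of 73 but not the descriptions of 72. The values of WT and of cKO come from tables that were scaled apart from each other.

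In all 6 genes fixed as CD4 T-cell markers the FPKM was at least 1 in every library, with sums of 699 to 971. Genes of macrophages and monocytes summed to 204 in WT and 62.6 in cKO on day 0 (all 6 and 5 of 6 at 1 or above) and to 1.38 and 0.0858 on day 3, when 3 of the 6 in WT and 5 in cKO are listed at 0. For neutrophil genes the sums were 60.2 and 29.7 on day 0 and 0.204 and 0.320 on day 3, and for erythroid genes 19.8 and 4.97, then 12.5 and 2.66. B-cell genes summed to 17.4 and 36.2 on day 0 and to 42.5 and 53.1 on day 3, CD8 T-cell genes to 4.46 and 7.74 and then 15.3 and 9.40, and NK-cell genes to 26.2 and 16.7 and then 6.98 and 6.76. The sources used here give no read totals. At loci of low level, the FPKM that 1 read stands for was 0.867 times as large on day 3 as on day 0 in WT and 0.9996 times in cKO, and 0.818 times as large in cKO as in WT on day 0 and 0.944 times on day 3. The number of named genes with an FPKM of at least 1 was 10728 to 10988 per library.

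Nearly all nuclear respiratory chain genes were more abundant after 3 days of stimulation, in both genotypes. Of the 72 members, 70 had a log2 ratio of day 3 to day 0 above 0 in WT and in cKO, against 64.3% and 63.9% of all measured genes, and the same 2, *Cox7a2l* and *Atp5sl*, were below 0 in both. Their median log2 ratio, taken as log2((day 3 + 0.1)/(day 0 + 0.1)), was 1.504 in WT (quartiles 1.13 and 1.83) and 1.41 in cKO (1.05 and 1.78). All 11165 measured genes had medians of 0.41 and 0.36. The summed FPKM of the 72 genes was 3503 on day 0 and 9676 on day 3 in WT, and 3449 and 8918 in cKO, log2 ratios of 1.47 and 1.37. The median member stood at 36.3 in WT and 34.5 in cKO on day 0 and at 109.7 and 102 on day 3, where the median measured gene had 8.71 and 8.74 and then 11.9 and 11.6. Fewer cells of a type and less RNA of a gene per cell cannot be told apart in such bulk RNA.

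Of the limits the study set on size and P, only that on size, an absolute log2 ratio over 1.5, was used. By it, 37 of the 73 measured members were higher on day 3 in WT, against 18.4% of all measured genes. In cKO 31 were higher, against 16.7%. No member was lower by that size, against 7.19% of genes in WT and 6.12% in cKO. A log2 ratio over 1 was reached by 58 members in WT, against 30.1%, and by 57 in cKO, against 28.1%. These counts include *Cox7a1*, whose ratios rest on very low values. Of the other 72 genes, 28 were past 1.5 in both genotypes, 8 in WT alone, 2 in cKO alone and 34 in neither, and of all measured genes 14.7% were in both, 3.75% in WT alone and 1.97% in cKO alone. Relative to the median measured gene, the members' median was 1.09 higher in WT and 1.05 higher in cKO, and then 17 and 14 of the 73 passed 1.5, against 12.0% and 11.5% of all genes. Setting every library to the same sum over named genes left 20 and 13 past it, against 13.6% and 11.3%. On either scale the members' share past the threshold stayed above that of all genes, and it was smaller than on the deposited scale.

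**Figure D1:**
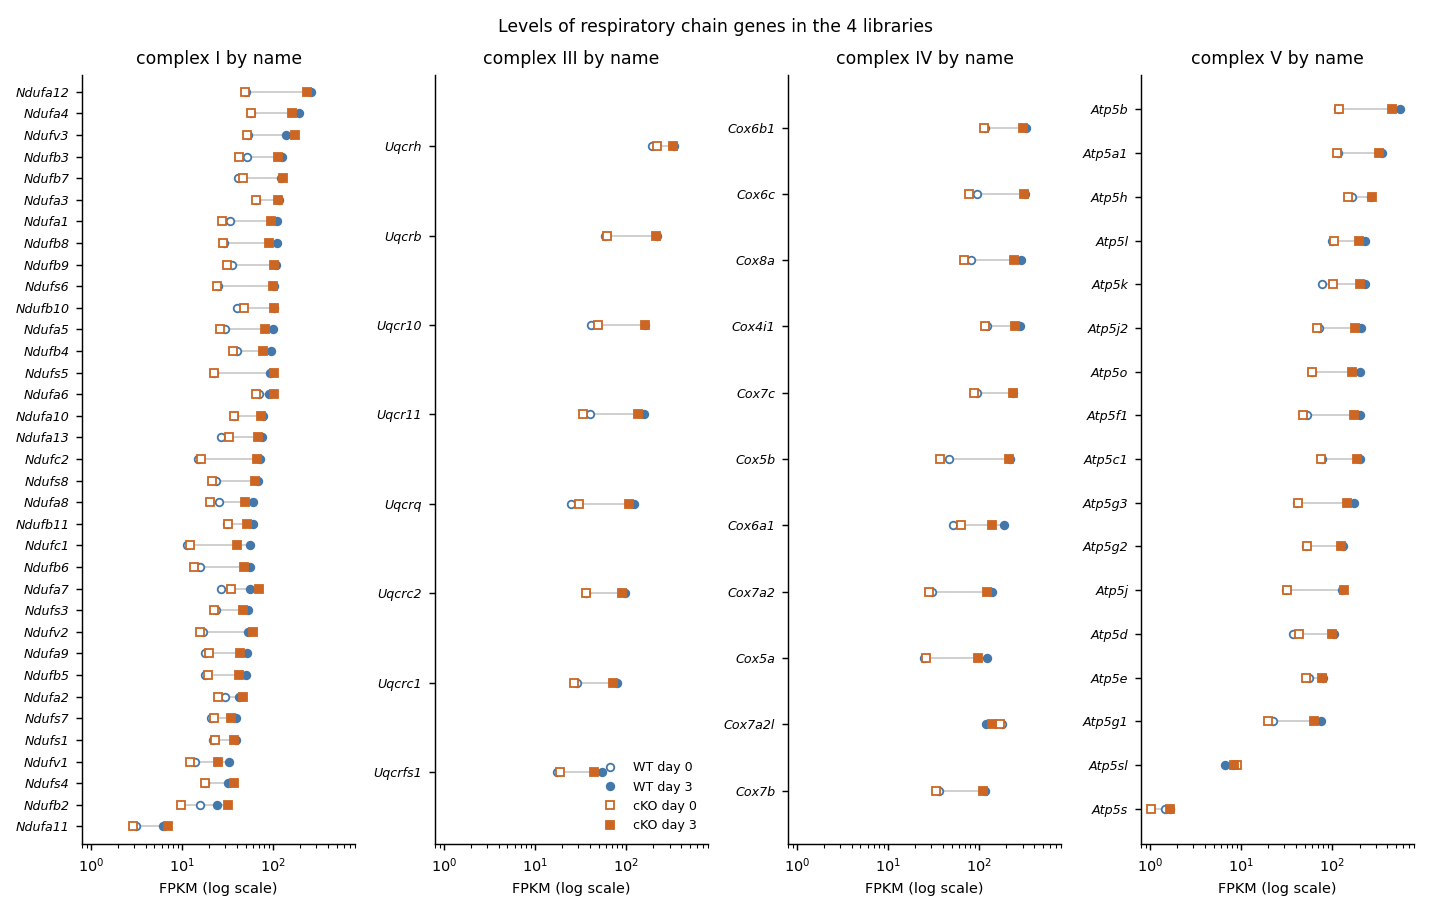
FPKM of 71 of the 72 measured members with a value in every library, on a log axis, 1 row per gene, ordered by WT day 3 within the complex its name gives; circles are WT, squares cKO, open symbols day 0 and filled symbols day 3, each 1 library. Within each genotype the filled symbol lies to the right of the open one in nearly every row, with *Cox7a2l* and *Atp5sl* the reverse. *Atp5b* has the highest level, 558 in WT on day 3.

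In WT the median log2 ratio was 1.36 over 36 genes of complex I, 1.75 over 8 of complex III, 1.78 over 11 of complex IV and 1.54 over 17 of complex V. In cKO the order was IV (1.72), III (1.56), V (1.30) and I (1.25). Single genes ranged in WT from 0.35 to 2.40 in complex I, 0.78 to 2.29 in III, -0.60 to 2.27 in IV and -0.28 to 2.25 in V. With subunits placed by what is now known, so that *Ndufa4* counts in complex IV and *Cox7a2l*, *Atp5s* and *Atp5sl* are left out, the WT medians were 1.35, 1.75, 1.78 and 1.56, and all 69 subunits were higher on day 3 in both genotypes, the lowest at 0.35 in WT and 0.59 in cKO. Both members below 0, *Cox7a2l* and *Atp5sl*, were among the genes not counted as subunits in this grouping, so the 69 do not include them.

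Complex I takes electrons from NADH, and its hydrophilic arm and the part that reduces ubiquinone hold 7 core subunits encoded in the nucleus. These had a median log2 ratio of 1.16 in WT and 1.04 in cKO, and the 28 accessory subunits measured 1.43 and 1.34. Among the core subunits *Ndufv2*, an iron-sulfur protein of the module that oxidizes NADH, had WT and cKO FPKM values of 17.2 and 15.8 on day 0 and of 53.0 and 60.4 on day 3, log2 ratios of 1.62 in WT and 1.92 in cKO. *Ndufs8*, an iron-sulfur protein next to ubiquinone, had WT and cKO FPKM values of 23.7 and 21.4 on day 0 and of 67.9 and 64.1 on day 3 (1.52 in WT and 1.58 in cKO). The others were below the threshold. *Ndufv1*, which binds FMN and accepts the electrons of NADH, had WT and cKO FPKM values of 13.9 and 12.2 on day 0 and of 32.7 and 24.97 on day 3, ratios of 1.22 in WT and 1.03 in cKO. *Ndufs7*, also near ubiquinone, had WT and cKO FPKM values of 21.1 and 22.3 on day 0 and of 39.3 and 34.2 on day 3 (0.89 in WT and 0.62 in cKO), at a deposited locus that covers 50 gene names, *Atp5d* among them. *Ndufs1* and *Ndufs3* had WT ratios of 0.83 and 1.16 and cKO ratios of 0.69 and 1.04.

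The largest change in complex I, and in WT among all 72 genes, was that of *Ndufa12* (chr10:94199008-94220952), an accessory subunit of the hydrophilic arm. It had WT and cKO FPKM values of 49.998 and 49.5 on day 0 and of 263 and 235 on day 3, ratios of 2.40 in WT and 2.24 in cKO, and was also the complex I gene with the highest level on day 3. *Ndufc1* and *Ndufc2*, small subunits of the membrane arm, came next in WT. *Ndufc1* (chr3:51405478-51408955) had WT and cKO FPKM values of 11.3 and 12.3 on day 0 and of 56.3 and 40.5 on day 3 (2.31 in WT and 1.71 in cKO), a difference, cKO minus WT, of -0.59. *Ndufc2* had WT and cKO FPKM values of 15.1 and 16.1 on day 0 and of 72.3 and 66.5 on day 3 (2.25 in WT and 2.04 in cKO). *Ndufs6*, a zinc-binding subunit added late in assembly, had WT and cKO FPKM values of 24.9 and 24.2 on day 0 and of 104 and 101 on day 3 (2.06 in WT and 2.05 in cKO). *Ndufs5*, on the intermembrane space side, had WT and cKO FPKM values of 22.5 and 22.7 on day 0 and of 93.5 and 102 on day 3 (2.05 in WT and 2.17 in cKO). For each of these subunits both day 3 libraries stood above both day 0 libraries.

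Further accessory subunits passed 1.5 in 1 or both genotypes. *Ndufb8* had WT and cKO FPKM values of 29.0 and 28.3 on day 0 and of 110.1 and 90.7 on day 3 (1.92 in WT and 1.68 in cKO) and *Ndufb6* 15.8 and 13.7 on day 0 and 55.9 and 48.1 on day 3 (1.82 in WT and 1.81 in cKO), both in the membrane arm. *Ndufa1*, on the X chromosome, had WT and cKO FPKM values of 33.3 and 27.5 on day 0 and of 111.8 and 94.7 on day 3 (1.74 in WT and 1.78 in cKO). For *Ndufa5*, of the ubiquinone module, the values were 30.1 and 26.3 on day 0 and 99.1 and 80.9 on day 3 (1.72 in WT and 1.61 in cKO). All of these kept open and filled symbols well apart in both genotypes. *Ndufb9*, of the LYR protein family, had WT and cKO FPKM values of 35.3 and 31.6 on day 0 and of 109 and 102 on day 3 (1.63 in WT and 1.68 in cKO). *Ndufb7* had WT and cKO FPKM values of 41.5 and 46.8 on day 0 and of 124 and 128 on day 3 (1.57 in WT and 1.46 in cKO), past the threshold in WT alone. *Ndufa9*, of the ubiquinone module, was likewise past it in WT alone, at 17.7 and 19.98 on day 0 and 51.9 and 43.8 on day 3 (1.55 in WT and 1.13 in cKO). The reverse held for *Ndufv3*, of the NADH module, at 53.8 and 52.2 on day 0 and 139.9 and 173 on day 3 (1.38 in WT and 1.72 in cKO).

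The remaining accessory subunits stayed below the threshold, apart from *Ndufb2*, which passed it in cKO and is described with the genotypes, and *Ndufa6* and *Ndufa2* had the lowest mean ratios among them. *Ndufa6*, another LYR protein, stood among the highest of complex I on day 0 and had WT and cKO FPKM values of 70.3 and 64.4 on day 0 and of 89.4 and 101 on day 3, ratios of 0.35 in WT and 0.65 in cKO. *Ndufa2*, of the NADH module, had WT and cKO FPKM values of 29.5 and 24.7 on day 0 and of 42.3 and 46.8 on day 3 (0.52 in WT and 0.92 in cKO). Relative to the median gene *Ndufa6* lay at -0.06 in WT and 0.29 in cKO, so its direction in WT turned with centring. *Ndufb4* had WT and cKO FPKM values of 40.7 and 36.9 on day 0 and of 94.8 and 76.8 on day 3 (1.22 in WT and 1.06 in cKO), and *Ndufa8* 25.6 and 20.4 on day 0 and 60.9 and 49.7 on day 3 (1.25 in WT and 1.28 in cKO). *Ndufa13*, also known as GRIM-19, had WT and cKO FPKM values of 26.9 and 32.7 on day 0 and of 75.7 and 69.2 on day 3 (1.49 in WT and 1.08 in cKO), and *Ndufa7* 27.0 and 34.9 on day 0 and 55.4 and 69.8 on day 3 (1.03 in WT and 0.999 in cKO). *Ndufa11*, a membrane-arm subunit, had the lowest level of complex I, with WT and cKO FPKM values of 3.16 and 2.93 on day 0 and of 6.18 and 6.98 on day 3 (0.95 in WT and 1.22 in cKO). The 7 accessory subunits not given singly elsewhere, *Ndufa3*, *Ndufa10*, *Ndufb3*, *Ndufb5*, *Ndufb10*, *Ndufb11* and *Ndufs4*, had WT ratios of 0.81 to 1.48 and cKO ratios of 0.67 to 1.40.

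Complex III passes electrons from ubiquinol to cytochrome c. All 8 of its members were higher on day 3 in both genotypes. *Uqcrq* (chr11:53428947-53430831), a small subunit, had WT and cKO FPKM values of 24.9 and 30.3 on day 0 and of 122 and 108 on day 3, ratios of 2.29 in WT and 1.83 in cKO. *Uqcr10* and *Uqcr11*, also small, had 41.3 and 49.5 on day 0 and 161 and 161 on day 3 (1.96 in WT and 1.70 in cKO) and 40.7 and 34.0 on day 0 and 157 and 137 on day 3 (1.94 in WT and 2.00 in cKO), the latter on a row shared with *Mbd3*, so that its value cannot be separated from that gene. *Uqcrb*, which lies near a ubiquinone site, had WT and cKO FPKM values of 59.2 and 61.6 on day 0 and of 218 and 211 on day 3 (1.88 in WT and 1.77 in cKO). The catalytic Rieske iron-sulfur protein *Uqcrfs1* had WT and cKO FPKM values of 17.5 and 18.9 on day 0 and of 54.1 and 44.1 on day 3 (1.63 in WT and 1.22 in cKO), past the threshold in WT alone. The core proteins *Uqcrc1* and *Uqcrc2* had ratios of 1.45 in WT and 1.42 in cKO and of 1.44 in WT and 1.32 in cKO, *Uqcrc2* with 36.1 and 36.1 on day 0 and 98.1 and 90.6 on day 3. *Uqcrh*, the acidic hinge protein that binds cytochrome c1, had the highest level of complex III at each time and the smallest change, 194 and 216 on day 0 and 333 and 331 on day 3 (0.78 in WT and 0.62 in cKO).

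Complex IV, cytochrome c oxidase, reduces oxygen. *Cox5b* (chr1:36691486-36693388), a zinc-binding subunit, had WT and cKO FPKM values of 46.5 and 37.7 on day 0 and of 219.9 and 212 on day 3, ratios of 2.24 in WT and 2.49 in cKO, the largest of all 72 in cKO. *Cox5a*, its partner at the matrix face, had WT and cKO FPKM values of 25.2 and 25.9 on day 0 and of 121 and 97.6 on day 3 (2.27 in WT and 1.91 in cKO). *Cox6c*, a small transmembrane subunit, had WT and cKO FPKM values of 94.1 and 76.7 on day 0 and of 323 and 309 on day 3 (1.78 in WT and 2.01 in cKO). These and the common isoforms described next all had an FPKM of at least 97.6 on day 3 in both genotypes. *Cox7c*, also transmembrane, had WT and cKO FPKM values of 94.1 and 87.8 on day 0 and of 237 and 235 on day 3 (1.33 in WT and 1.42 in cKO), below the threshold.

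Several subunits of complex IV exist as tissue isoforms, and here the common form carried nearly all of the RNA. *Cox4i1* had WT and cKO FPKM values of 122 and 117 on day 0 and of 282 and 249.8 on day 3 (1.21 in WT and 1.09 in cKO), with its lung form *Cox4i2* listed at 0. *Cox8a* had WT and cKO FPKM values of 81.9 and 67.6 on day 0 and of 286 and 243 on day 3 (1.80 in WT and 1.84 in cKO), with the muscle form *Cox8b* and the testis form *Cox8c* listed at 0. *Cox7b* had WT and cKO FPKM values of 36.4 and 33.9 on day 0 and of 118 and 111.6 on day 3 (1.69 in WT and 1.72 in cKO), with *Cox7b2* of testis listed at 0. In each of these groups the common isoform was thus the only one with any value. *Cox6b1*, which faces the intermembrane space, had WT and cKO FPKM values of 117 and 114 on day 0 and of 326 and 305 on day 3 (1.48 in WT and 1.42 in cKO), and the testis form *Cox6b2* 1.75 in WT on day 3 and a listed 0 in the other libraries. *Cox6a1* had WT and cKO FPKM values of 52.1 and 63.1 on day 0 and of 189 and 138 on day 3 (1.86 in WT and 1.13 in cKO), and the heart and muscle form *Cox6a2* 1.25 and 0.817 on day 0, 0.858 in WT on day 3 and a listed 0 in cKO on day 3. *Ndufa4*, named for complex I and now placed in complex IV, had WT and cKO FPKM values of 57.5 and 57.8 on day 0 and of 192 and 162 on day 3 (1.74 in WT and 1.48 in cKO), and *Ndufa4l2*, its relative induced by hypoxia, at most 0.316.

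In the COX7A group the shares of the relatives shifted in both genotypes, and their order reversed in WT but not in cKO. *Cox7a2* (chr9:79755240-79759853), the common subunit 7A, had WT and cKO FPKM values of 30.5 and 28.3 on day 0 and of 140.2 and 123 on day 3, ratios of 2.20 in WT and 2.11 in cKO. *Cox7a2l* (chr17:83501916-83514333) encodes a related protein that joins complexes III and IV into supercomplexes, of which C57BL/6 mice carry a shortened form, and it had WT and cKO FPKM values of 180.3 and 170.3 on day 0 and of 119 and 137 on day 3, ratios of -0.60 in WT and -0.31 in cKO. On day 0 *Cox7a2l* was the most abundant of the members after *Uqcrh* in WT and in cKO. As a share of the summed FPKM of the group, *Cox7a2* stood at 14.5% in WT and 14.2% in cKO on day 0 and at 53.8% and 46.8% on day 3, and *Cox7a2l* at 85.5% and 85.5%, then 45.6% and 52.3%. *Cox7a1* made up the rest, listed at 0 in WT and at 0.463 in cKO on day 0 and at 1.44 and 2.30 on day 3. *Cox7a2l* was below 0 in both genotypes on every scale tried.

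**Figure D2:**
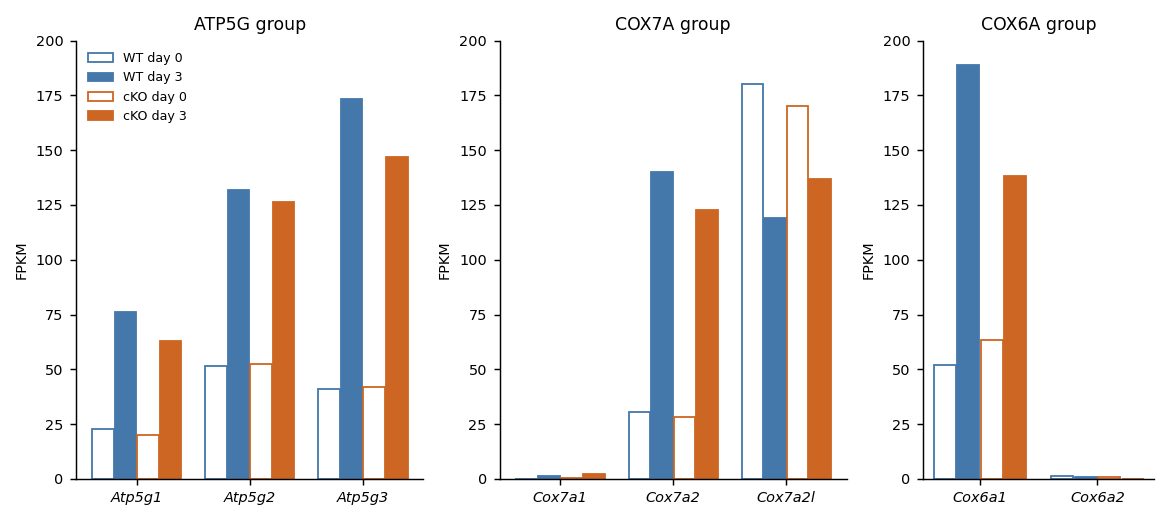
FPKM of the related genes of 3 groups, 1 bar per library (blue WT, orange cKO, open day 0, filled day 3), on a linear axis from 0. In the ATP5G group all 3 genes are higher on day 3; in the COX7A group *Cox7a2* is higher and *Cox7a2l* lower; *Cox6a1* is higher while *Cox6a2* stays at 1.25 or less.

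ATP synthase consists of a catalytic F1 part in the matrix and an Fo part in the membrane, joined by stalks. The 5 F1 subunits had a median log2 ratio of 1.48 in WT and 1.30 in cKO, and the 10 subunits of Fo and the peripheral stalk 1.66 and 1.43. *Atp5b* (chr10:128083306-128090388), the catalytic β subunit, had WT and cKO FPKM values of 117 and 118 on day 0 and of 558 and 456 on day 3, ratios of 2.25 in WT and 1.95 in cKO, and was the most abundant member in both genotypes on day 3. *Atp5a1*, its partner α, had WT and cKO FPKM values of 116 and 112.5 on day 0 and of 351 and 326 on day 3 (1.598 in WT and 1.53 in cKO). *Atp5e*, the small ε subunit of the rotor, changed least of the F1 genes, with WT and cKO FPKM values of 55.5 and 51.3 on day 0 and of 80.2 and 77.5 on day 3 (0.53 in WT and 0.59 in cKO). *Atp5c1* (γ) and *Atp5d* (δ), which complete the rotor, had ratios of 1.38 in WT and 1.30 in cKO and of 1.48 in WT and 1.21 in cKO.

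Of the Fo and stalk subunits, *Atp5j* (F6) had WT and cKO FPKM values of 31.2 and 31.8 on day 0 and of 129 and 134 on day 3, ratios of 2.04 in WT and 2.08 in cKO; its locus also covers *Gabpa*. *Atp5f1* (b) had WT and cKO FPKM values of 53.3 and 47.7 on day 0 and of 202 and 176 on day 3 (1.92 in WT and 1.88 in cKO), and *Atp5o* (OSCP, the joint to F1) 59.9 and 60.9 on day 0 and 203 and 166 on day 3 (1.76 in WT and 1.44 in cKO). *Atp5h* (d), of the same stalk, was the most abundant of the members of complex V in both genotypes on day 0 and had 167 and 151 on day 0 and 269 and 274 on day 3 (0.69 in WT and 0.86 in cKO). The stalk subunits thus ran from 0.69 to 2.04 in WT. *Atp5j2* (f) had WT and cKO FPKM values of 71.4 and 67.8 on day 0 and of 208 and 180.5 on day 3 (1.54 in WT and 1.41 in cKO), *Atp5k* (e) 77.1 and 103 on day 0 and 227 and 203 on day 3 (1.56 in WT and 0.98 in cKO), and *Atp5l* (g) ratios of 1.20 in WT and 0.90 in cKO. *Atp5s*, a factor that is not a fixed subunit, had WT and cKO FPKM values of 1.46 and 1.03 on day 0 and of 1.67 and 1.66 on day 3 (0.18 in WT and 0.64 in cKO), and *Atp5sl*, now known as an assembly factor of complex I, 8.21 and 9.13 on day 0 and 6.72 and 8.30 on day 3 (-0.28 in WT and -0.14 in cKO). Relative to the median gene, *Atp5s* lay at -0.23 in WT and 0.28 in cKO, and with libraries set to the same sum at -0.08 in WT, so its direction in WT turned on either scale.

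The c subunits of the membrane ring come from 3 genes with the same mature protein. *Atp5g3* had WT and cKO FPKM values of 41.1 and 41.9 on day 0 and of 173 and 147 on day 3 (2.07 in WT and 1.81 in cKO), *Atp5g1* 22.5 and 19.96 on day 0 and 76.2 and 62.7 on day 3 (1.76 in WT and 1.65 in cKO), and *Atp5g2* 51.7 and 52.4 on day 0 and 132 and 126 on day 3 (1.35 in WT and 1.26 in cKO). Their summed FPKM was 115 in WT and 114 in cKO on day 0 and 381 and 336 on day 3. On day 0 *Atp5g2* held the largest share, 44.8% in WT and 45.9% in cKO, and on day 3 *Atp5g3* did, at 45.4% and 43.8%, while *Atp5g1* stayed between 17.5% and 19.98%.

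**Figure D3:**
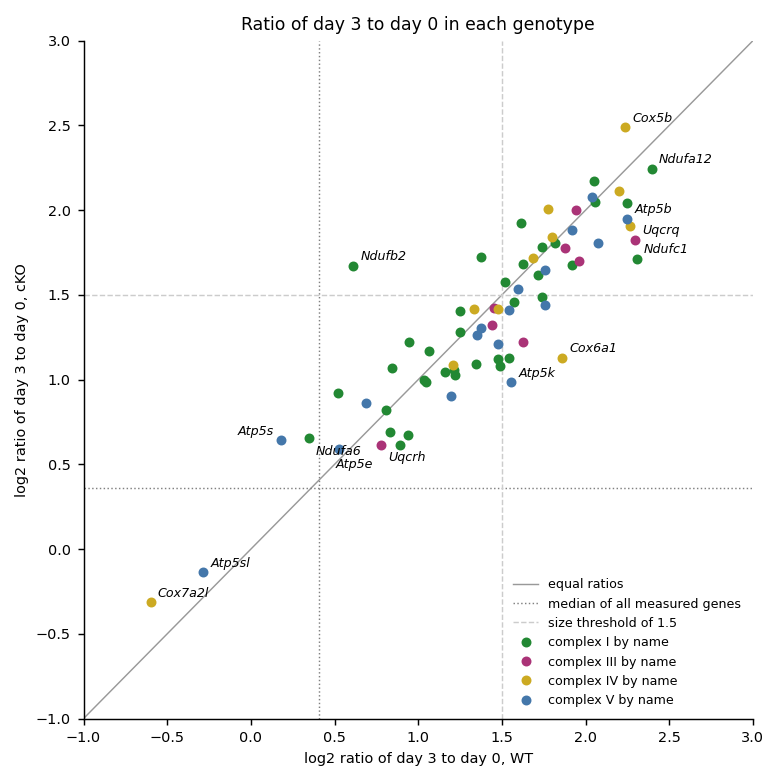
Log2 ratio of day 3 to day 0 in WT (x axis) and cKO (y axis) for the 72 members, coloured by complex; the solid line marks equal ratios, dotted lines the medians of all measured genes (0.41 and 0.36) and dashed lines the size threshold. The points follow the line, with Pearson's r of 0.89 across genes, and *Ndufb2*, *Cox6a1*, *Ndufc1* and *Atp5k* lie farthest from it.

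The genotypes gave much the same picture. Across the 72 genes the WT and cKO ratios had a Pearson's r of 0.89 and a Spearman's rho of 0.88, a description over genes that share their libraries. A gene's level on day 0 bore little relation to its ratio, with rho of -0.03 in WT and -0.08 in cKO. The difference of the ratios, cKO minus WT, had a median of -0.08 among members and -0.04 among all genes, and it exceeded 1.5 for no member but *Cox7a1*, against 2.64% of genes. It was over 0.5 in size for 4 of the 72, against 20.8% of all genes. The members had higher levels than the median measured gene, and genes of like level were not compared. *Ndufb2*, of the membrane arm of complex I, had WT and cKO FPKM values of 15.9 and 9.87 on day 0 and of 24.4 and 31.7 on day 3, so its ratio was higher in cKO by 1.06. For *Cox6a1*, *Ndufc1* and *Atp5k*, with the values given above, the difference, cKO minus WT, was -0.73, -0.59 and -0.57. The locus of *Ndufb2* covers a further gene name.

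On day 0 the members stood at nearly the same level in cKO and WT. Their median log2 ratio of cKO to WT was -0.04, with quartiles of -0.14 and 0.08, and that of all genes was 0.00. *Cox7a1*, listed at 0 in WT, was the only member past 1.5, against 1.65% of genes. The highest of the others were *Atp5k* (0.41), *Ndufa7* (0.37), *Uqcrq* (0.28) and *Ndufa13* (0.28), and the lowest *Ndufb2* (-0.69), *Atp5s* (-0.47), *Ndufa8* (-0.33), *Cox5b* (-0.30) and *Cox6c* (-0.29). By complex the medians were -0.03 (I), 0.08 (III), -0.10 (IV) and 0.01 (V). The macrophage, neutrophil and erythroid marker sums given above were 2.02 to 3.99 times as high in WT as in cKO on day 0. Those of NK cells were 1.57 times as high, B cells 0.481 times, CD8 T cells 0.576 times and CD4 T cells 0.809 times. Their part in these ratios was not tested.

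On day 3 the members were slightly lower in cKO. The median was -0.12 over 72 genes, of which 57 were below 0 and 15 above, and the median of all genes was -0.04, with 57.1% below 0. None of the 73 passed 1.5, against 1.73% of genes. The lowest were *Ndufc1* (-0.47), *Cox6a1* (-0.45), *Ndufv1* (-0.39), *Cox5a* (-0.31) and *Ndufb4* (-0.30), and the highest apart from *Cox7a1* *Ndufb2* (0.38), *Ndufa7* (0.33), *Ndufv3* (0.30) and *Atp5sl* (0.30). Medians by complex were -0.11 (I), -0.13 (III), -0.09 (IV) and -0.12 (V), beside -0.04 for all genes. As the tables were scaled apart, a shift shared by all genes cannot be told apart from scaling. With each library set to the same sum over named genes the median of all genes itself was -0.20. Relative to the median measured gene on the deposited scale, the median of the 72 genes was -0.07, and this difference was not tested.

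**Figure D4:**
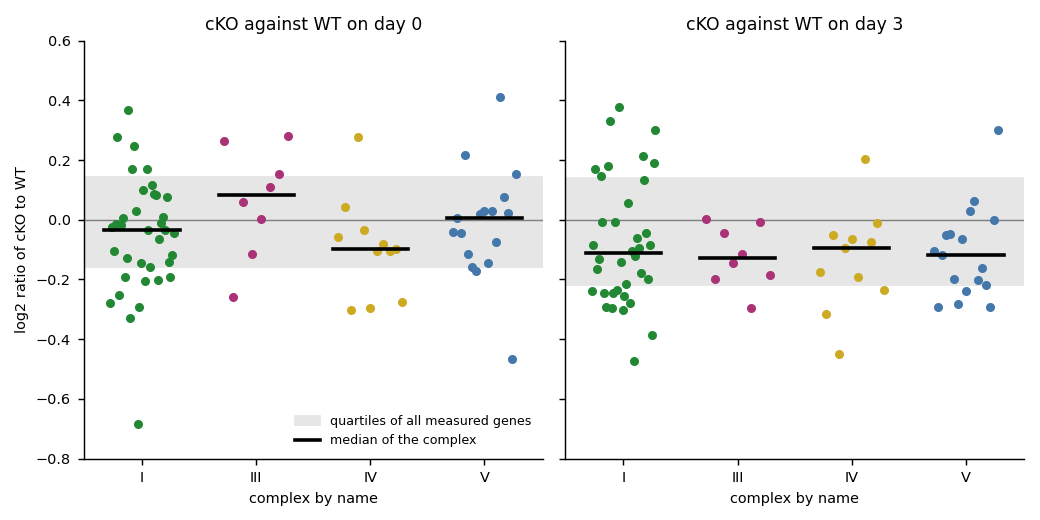
Log2 ratio of cKO to WT on day 0 and on day 3 for the 72 members by complex, 1 point per gene, black bars for medians and grey for the range between the quartiles of all measured genes. On day 0 points lie on both sides of 0 in each complex, and on day 3 the medians of all 4 complexes lie between -0.13 and -0.09.

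Most genes that work with the complexes were also above 0, among them all subunits of complex II, both cytochromes c and c1, and 36 of 43 assembly factors in WT and 37 in cKO, against 64.3% and 63.9% of all genes. Complex II, whose subunits are all nuclear, had *Sdha*, *Sdhb*, *Sdhc* and *Sdhd* at WT ratios of 0.99, 1.63, 1.02 and 1.89. Of the 4, 2 passed 1.5 in WT and 1 in cKO, against 18.4% and 16.7% of all measured genes. *Cycs*, cytochrome c itself, had WT and cKO FPKM values of 15.9 and 15.5 on day 0 and of 104 and 89.7 on day 3 (2.70 in WT and 2.53 in cKO), above each of the 72 members in both genotypes. *Cyc1*, cytochrome c1 of complex III, whose name the rule does not match, had WT and cKO FPKM values of 13.5 and 13.4 on day 0 and of 48.9 and 42.0 on day 3 (1.85 in WT and 1.64 in cKO). *Atpif1*, the inhibitor of ATP synthase, had WT and cKO FPKM values of 41.9 and 36.5 on day 0 and of 239 and 196 on day 3 (2.51 in WT and 2.42 in cKO).

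Assembly factors had a lower median ratio than subunits. Over 43 measured factors of complexes I, III, IV and V the median was 0.90 in WT and 0.80 in cKO, against medians of 1.54 and 1.42 for the 69 subunits. In each genotype 6 of the 43 were higher by over 1.5, where all genes had 18.4% and 16.7%, and none was lower by that much. *Ndufaf2*, a relative of *Ndufa12* that precedes it in assembling complex I, had WT and cKO FPKM values of 4.09 and 3.34 on day 0 and of 27.4 and 28.0 on day 3 (2.72 in WT and 3.03 in cKO). *Ndufaf6* had WT and cKO FPKM values of 2.35 and 3.85 on day 0 and of 13.2 and 11.9 on day 3 (2.44 in WT and 1.596 in cKO). The copper chaperone *Cox17* had WT and cKO FPKM values of 32.7 and 29.0 on day 0 and of 154 and 159.7 on day 3 (2.23 in WT and 2.46 in cKO), and *Sco1*, which passes copper on to complex IV, 1.89 and 3.09 on day 0 and 14.3 and 9.10 on day 3 (2.85 in WT and 1.53 in cKO). These 4 and *Coa4*, with 1.69 and 1.38 on day 0 and 8.71 and 6.72 on day 3 (2.30 in WT and 2.21 in cKO), were past 1.5 in both genotypes. Among complex III factors *Bcs1l*, which inserts the Rieske protein, was highest in WT at 1.64 (0.33 in cKO), and *Ttc19* lowest at -0.39 (-0.65). *Coa7* and *Cox10*, which makes heme A precursors, were the lowest of the complex IV factors, at -0.86 and -0.81 in WT.

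Regulators of mitochondrial genes showed a median ratio of 0.45 in WT and 0.34 in cKO over 14 measured genes. *Myc*, which drives growth genes on activation, had WT and cKO FPKM values of 15.0 and 12.6 on day 0 and of 79.4 and 77.8 on day 3 (2.40 in WT and 2.62 in cKO) and was the only one past 1.5 upward in either genotype. *Nrf1*, *Yy1* and *Gabpa*, whose sites were sought above, had WT ratios of 0.12, 0.59 and 0.79, and *Tfam*, which packs mitochondrial DNA, 0.90. *Ppargc1a* stayed at or below 0.0845, and *Ppargc1b* stood at -1.12 in WT and -1.30 in cKO. *Esrra*, which encodes ERR alpha, had 9.26 in WT and 50.2 in cKO on day 0 and 8.09 and 7.80 on day 3; its deposited locus (chr19:6909697-6921810) also holds *Trmt112*, at 15.5 and 16.0 and then 27.3 and 20.6.

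The mitochondrial genome appears in the files as 1 unnamed locus that spans it from base 5 to base 16297, noticed after its values were seen. Its FPKM was 1869 in WT and 1561 in cKO on day 0 and 1843 and 1717 on day 3, log2 ratios of -0.02 and 0.14. The summed FPKM of the 72 nuclear members was 1.87 times that of this locus in WT and 2.21 times in cKO on day 0, and 5.25 and 5.195 times on day 3. The sum adds 72 values, each relative to the length of its own transcript, and the locus has 1 value relative to its whole length. These multiples therefore do not compare amounts of nuclear and mitochondrial RNA. The locus holds ribosomal RNA genes as well as subunits of the same complexes, and these cannot be told apart in 1 value.

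**Figure D5:**
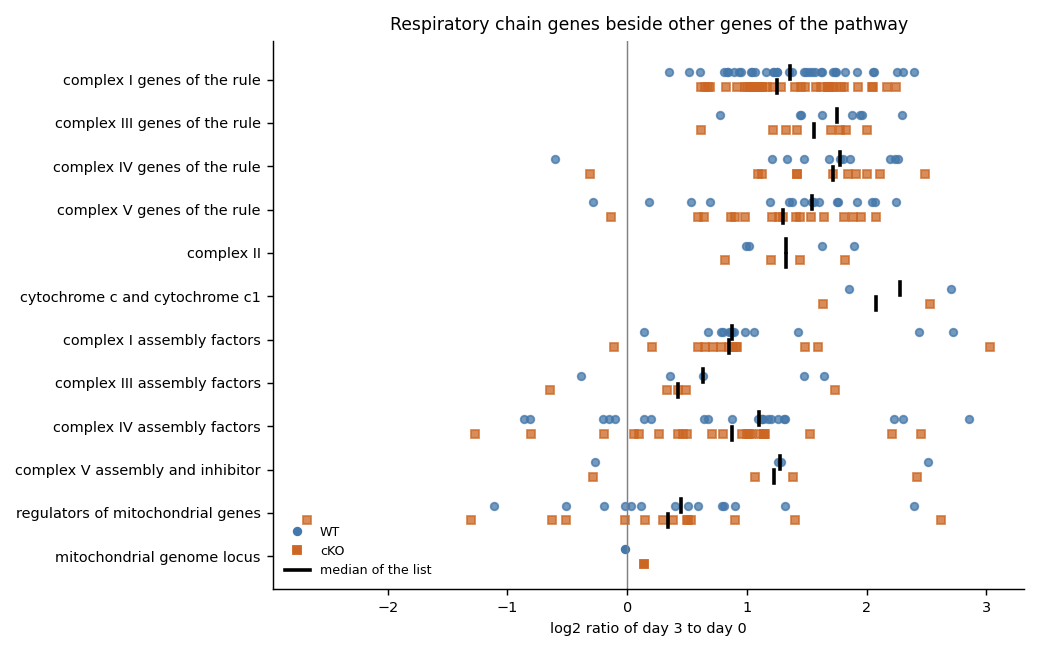
Log2 ratio of day 3 to day 0 of each measured gene in the 4 complexes and in the other lists (blue circles WT, orange squares cKO, black bars medians), with the mitochondrial genome locus in the last row. The complexes have medians of 1.25 to 1.78, assembly factor lists 0.42 to 1.27, and the mitochondrial locus lies at -0.02 and 0.14.

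Members of the complexes have short transcripts, with a median length of 683 bases in GENCODE vM1 against 2210 for all measured genes with an entry. Among genes under 1000 bases, the 50 members had a median ratio of 1.59 in WT and 1.47 in cKO, and 1473 other measured genes 0.79 and 0.73.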

How the data were processed

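RNA of 4 libraries was analysed, 1 per condition. According to the methods of the study, reads were mapped with TopHat 2.0.10 to the mm9 RefSeq genome, and Cufflinks 2.1.1 assembled transcripts and estimated expression, while the submitters' processing notes name CASAVA as well. The authors deposited FPKM values, relative to transcript length and to the mapped fragments of a library, in tables of 31171 loci. The tables of day 3 against day 0 in WT and in cKO, the 2 used here, were joined by locus identifier, with gene names from the cKO table because 25 names in the WT table had become dates. Columns of the authors' own fold changes, p-values and q-values were not used, nor were 2 tables headed cKO against WT and 16 of functional annotation. Rows with no gene name, 7265 of them, were left out apart from the mitochondrial locus. A name on several rows took the row of highest mean. Deposited loci enclosed the GRCm38.p6 position within 1000 bases for 90.9% of 77 members and the NCBIM37 position for 6.25% of 80, so positions are read as GRCm38.

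Differences are log2 ratios with 0.1 added to each FPKM, among names with a mean FPKM of at least 1, and the added 0.1 understates changes of weakly expressed genes. With 1 library per condition there was no test. Depth is unknown, and a listed 0 can be a failed estimate. Ratios that rest on a listed 0, such as that of *Cox7a1* in WT, are therefore not printed. They do enter the counts past a threshold. A deposited locus can cover overlapping genes, as for 16 of the 80 members, and *Ndufa1* and *Ndufa13* had 2 rows each. Whether strand was used in counting is not given in the sources used here. Members and lists were chosen with earlier results of these data known. Full values were given for the 3 highest and 3 lowest mean ratios and the 2 highest levels of each complex, for members past 1.5 in any comparison, for the 5 members at either end of the cKO to WT ratio on each day, for related isoforms and for members below the minimum. One member is counted in the summaries but not reported singly here. Of other lists, genes past 1.5 in both genotypes were named, or else the extremes. *Cox10*, *Coa7*, the complex II genes and regulators that fall outside this were named after their values were seen. Alternatives were pseudocounts of 1 and 0.01, a mean FPKM of at least 5, no minimum, a minimum of 1 in either of the libraries compared, centring, equal sums, a threshold of 1, shared rows left out, grouping by function and summed rows, and, chosen after seeing the data, omission of *Cox7a1*. The calculation was tested on simulated data. Python 3.11.15, numpy 2.4.6, pandas 2.3.3 and matplotlib 3.10.9 were used.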

Additional observations from a re-analysis of the deposited data

How the results depend on the processing

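Medians of the members and of each complex moved by less than 1.5-fold under every alternative, and no result past the threshold changed its sign. That limit is wider than the gaps between complexes, whose order did change. With no minimum FPKM the medians of complexes I, III, IV and V were 1.35, 1.75, 1.58 and 1.54 in WT. In cKO they were 1.22, 1.56, 1.27 and 1.30. With a pseudocount of 1, complex III had 1.720 and complex IV 1.715 in WT. Members higher on day 3 by over 1.5 numbered 17 in WT and 14 in cKO after centring on the median gene, 20 and 13 with libraries set to the same sum, and 58 and 57 at a threshold of 1. With no minimum FPKM, 1 of the 80 members was lower past the threshold in cKO. In the same setting 2 differed between the genotypes on day 0, 2 on day 3, and the difference of ratios passed it for 3. All of these rest on a listed 0, and the shares of all genes in this setting were not computed for them. The single member past the threshold on day 0 and in the difference of ratios is *Cox7a1*. That number was 0 in both comparisons with a pseudocount of 1, with a mean FPKM of at least 5, with equal sums and without *Cox7a1*. With a minimum of 1 in either of the libraries compared it was 0 on day 0. That filter gave 1 on day 3, *Cox6b2*, listed at 0 in cKO, and the share of all genes under it was not computed. At a threshold of 1 the difference of ratios passed for 2 of the 73 measured members. Of all 11165 measured genes, 402 were above 1 and 276 below -1. Of 874 values of single genes under other pseudocounts, scalings, thresholds or summed rows, 753 kept their side of the threshold, 74 dropped below it and 47 came to pass it, the last at a threshold of 1. Leaving out a replicate was not possible with 1 library per condition. No paired analysis was possible because each group has 1 library. Read depth is unknown and sets no limit that could be given here.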
